A study of Mus musculus with 10 samples.

Results

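A set of 10 surface receptors of natural killer cells were followed in cultured splenic B cells that lacked the transcription factor IRF4. The receptors are Klrd1, Klrc1, Klre1, Klrk1, Klrb1c, Klrb1f, Klrg1, Ncr1, Cd160 and Il2rb. They were taken by symbol from the platform annotation, as every probe set whose symbol field held one of these names or an older name for it. That gave 16 probe sets for 10 genes, among 45037 probe sets that are no controls and 18193 genes with a probe set of their own. The genes were chosen by their signal difference between the genotypes in these same arrays: most were brighter in irf4-/- arrays, while Klrb1f was dimmer. Their own differences are therefore given as a description, with no test.

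The 5 irf4-/- and the 5 irf4+/+ samples were B cells of C57BL/6 littermates aged 12 weeks. Spleen cells had been depleted of non-B cells with magnetic beads, and both genotypes then received the same stimulus in culture, CD40 antibody with 20 ng/ml IL-4 for 3 days. Each sample was hybridised to its own 1-colour Affymetrix array. Whether replicates are different mice, or different cultures, is not stated in the labels. The p-values below therefore reflect variation among these particular samples, and that variation could be technical. The labels do not describe how the irf4 allele was disrupted.

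Natural killer cells are lymphocytes that kill other cells without an antigen receptor of their own. They weigh signals from activating and inhibitory surface receptors. Most of these receptors in mice are C-type lectin-like proteins of the Klr families, encoded side by side in the natural killer gene complex on chromosome 6. Inhibitory ones carry tyrosine motifs that recruit phosphatases, and activating ones borrow adaptors such as DAP12, DAP10 or the Fc receptor gamma chain. The beta chain of the IL-2 and IL-15 receptor, encoded by Il2rb, carries the survival signal of these cells. Resting B cells are not known for most of these proteins, although T cells, some innate lymphoid cells and myeloid cells share several.

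The genes lie in a few places of the mouse genome. In the RefSeq annotation of build GRCm38.p6, 7 of the 10 lie on chromosome 6. Klrg1 stands apart at chr6:122270596-122282833, and Klrb1c (chr6:128778485-128788641) and Klrb1f (chr6:129045837-129059724) lie in the Nkrp1 part of the complex. Klre1, Klrd1 and Klrk1 follow each other without another protein-coding gene between them, from chr6:129559365-129585828 through chr6:129588092-129598775 to chr6:129610323-129623903, and Klrc1 is at chr6:129666015-129682852. Ncr1 is at chr7:4337715-4345184, Cd160 at chr3:96798763-96829351 and Il2rb at chr15:78479256-78511621.

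RefSeq promoter windows of 300 bases, from 250 before to 50 after a gene start, matched 7 of the 10 genes, all but Klrd1, Klrg1 and Il2rb, in 10 windows. Of these, 3 are printed because they stand for both directions seen on the arrays: Klrb1f, which was dimmer in irf4-/- samples, and Klrk1 and Ncr1, which were brighter. Each is written 5′ to 3′ on the gene's strand, in build GRCm38.p6, at chr6:129045651-129045950 (plus strand), chr6:129623815-129624114 (minus strand) and chr7:4337465-4337764 (plus strand). Capitals mark matches, on either strand, to 5 motifs: GGTGTGA (T-box), TGTGGTT (RUNX), GAAA and GAAA with any 2 bases between (IRF), GGAA and GAAA with any 2 bases between (ETS-IRF), and TTC and GAA with any 3 bases between (STAT).
Klrb1f: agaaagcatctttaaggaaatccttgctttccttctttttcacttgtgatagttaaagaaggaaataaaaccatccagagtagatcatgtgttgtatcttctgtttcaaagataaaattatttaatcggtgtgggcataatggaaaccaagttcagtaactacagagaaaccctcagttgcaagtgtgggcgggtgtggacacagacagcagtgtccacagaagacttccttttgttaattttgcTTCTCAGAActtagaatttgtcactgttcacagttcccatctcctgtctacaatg
Klrk1: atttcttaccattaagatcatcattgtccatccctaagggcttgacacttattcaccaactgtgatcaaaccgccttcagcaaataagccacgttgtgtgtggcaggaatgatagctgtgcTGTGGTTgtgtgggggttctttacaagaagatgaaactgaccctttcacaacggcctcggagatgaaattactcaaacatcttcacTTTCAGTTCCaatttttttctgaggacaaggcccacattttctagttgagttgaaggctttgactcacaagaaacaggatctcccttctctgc
Ncr1: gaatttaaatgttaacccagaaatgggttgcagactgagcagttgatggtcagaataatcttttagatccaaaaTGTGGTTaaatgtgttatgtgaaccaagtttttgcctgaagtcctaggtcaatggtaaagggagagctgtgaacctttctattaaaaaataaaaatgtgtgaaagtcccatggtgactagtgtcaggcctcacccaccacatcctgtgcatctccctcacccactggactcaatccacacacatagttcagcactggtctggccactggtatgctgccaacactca

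The RUNX letters occurred in 6 of the 10 windows, those of 4 genes (Cd160, Klre1, Klrk1 and Ncr1), and in 5.27% of all 32851 promoter windows. Some windows of 1 gene overlap, so the windows are not independent. In Klrk1 the RUNX match begins at base 122 of the window as written, and in Ncr1 at base 75. The ETS-IRF letters, to which a factor such as PU.1 and IRF4 can bind side by side, occurred in the Klrk1 window alone, as the reverse complement from base 208, and in 2.72% of all windows. Klrb1f held the STAT letters from base 246 (8.30% of all windows), as did 1 Cd160 window, which also held the T-box letters (3.98% of all windows). None of the 10 windows held the IRF letters, which 3.44% of all windows did. The IRF and ETS-IRF letters differ at their second base, so both cannot match the same 10 bases, although matches can overlap in part. These are matches of letters in short windows and say nothing of binding.

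Signals below are linear MAS5 signal units. A value under 26.1, the 40th percentile of all deposited values, is called dim, because no detection calls came with the values. Differences are on the scale log2(signal + 7.9), irf4-/- minus irf4+/+, with their standard error (SE) from limma over all tested probe sets. This scale understates the change of dim genes, and fold values follow from it. For genes dim in one genotype the fold shifts with the constant added before the log.

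The targeted gene was still measured. The brighter Irf4 probe set gave 2638 to 2989 in irf4-/- arrays (median 2766), against 3426 to 3978 in irf4+/+ arrays (median 3758), and the groups did not overlap. Where it lies relative to the disrupted part is not given, so it does not check the genotype. Array medians ranged from 37.2 to 45 signal units. Pearson's r between arrays over 12251 genes was 0.977 to 0.985 within and 0.938 to 0.945 between genotypes. No array stood apart. The 18S ribosomal RNA control, a sign of RNA composition, read 289, 259.9, 177.8, 126.2 and 182.6 at its 3′ probe set in irf4-/- arrays, against 62.8, 58.1, 60.2, 58.8 and 104.9 in irf4+/+ arrays, and its part in the receptor values was not tested.

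Seen as a group, the receptors were brighter in irf4-/- samples, with clear exceptions. Of the 16 probe sets, 7 had every irf4-/- array above every irf4+/+ array, and 2, both of Klrb1f, had every irf4-/- array below. Among all 45037 probe sets the background was 9.45% above and 9.06% below. Over the filter on dim signal (a mean over all arrays of at least 25.1) were 10 of the 16 probe sets, belonging to 8 of the 10 genes, and in the fit 8 of them were called higher and 2 lower at an adjusted p under 0.05. The background there was 20.5% higher and 19.4% lower of 27024 probe sets. Because these values chose the genes, and because several passed the filter only through the genotype in which they were bright, the counts carry no weight as evidence. The dimmest probe set over the filter was that of Ncr1 (mean 30.9), and the brightest one under it was a Cd160 probe set (mean 18.5).

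**Figure D1:**
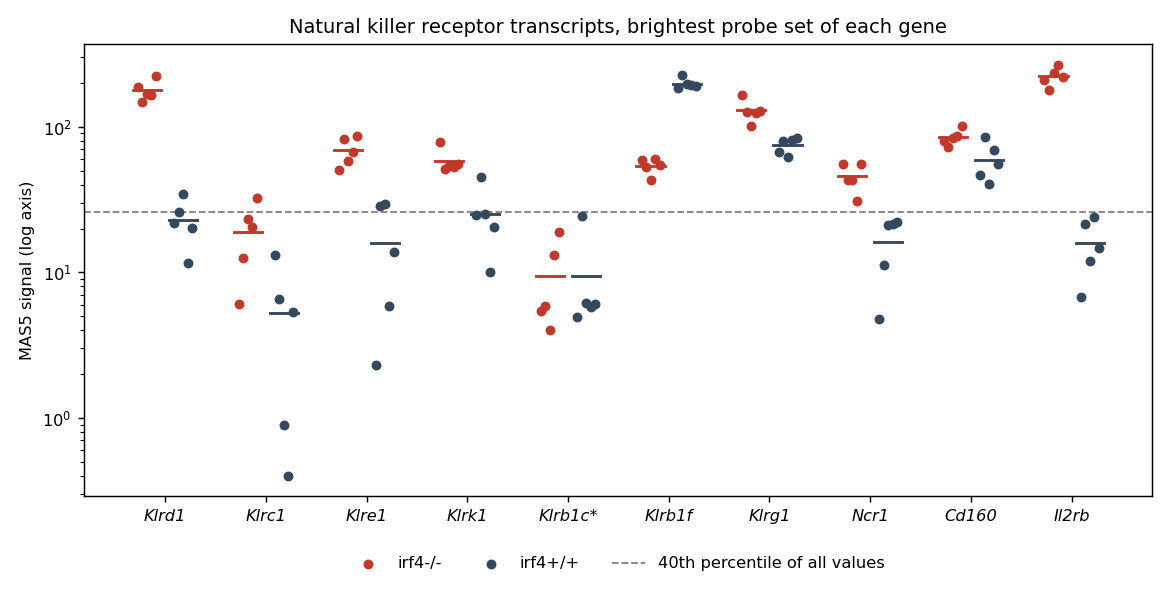
MAS5 signal (log axis) of the brightest probe set of each receptor gene. Each point is an array, irf4-/- left and irf4+/+ right, with a bar at the mean of 5 arrays, and the dashed line is the 40th percentile of all values, 26.1. The groups are apart for 7 genes and overlap for Klrc1, Klrb1c and Cd160. The Klrb1c probe set (asterisk) is shared with Klrb1b.

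The lectin-like receptors named CD94 or NKG2 come first. Klrd1 encodes CD94, the partner chain of NKG2A but not of NKG2D. It gave 188.8, 147.9, 167.8, 164.6 and 221.5 in irf4-/- arrays, against 21.7, 26.1, 34.4, 11.5 and 20.3 in irf4+/+ arrays. Every irf4-/- array was above even the brightest irf4+/+ array, and 3 irf4+/+ arrays were dim. The means were 178 ± 28.3 in irf4-/- and 22.8 ± 8.38 in irf4+/+ arrays (SD, n = 5), a log2 difference of 2.63 (SE 0.197), or 6.20-fold.

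Klrc1 encodes NKG2A, which with CD94 forms the inhibitory receptor for the nonclassical MHC molecule Qa-1. Its brighter probe set gave 6.1, 12.6, 23.1, 20.6 and 32.5 in irf4-/- arrays, against 13.1, 6.6, 0.9, 0.4 and 5.3 in irf4+/+ arrays. All irf4+/+ and all but 1 of the irf4-/- values were dim, and the groups overlapped. The second probe set was dim on all arrays, with means of 11.7 ± 8.20 in irf4-/- and 4.00 ± 1.56 in irf4+/+ arrays (SD, n = 5). Neither passed the filter, so the arrays give no usable difference for the chain that makes CD94 inhibitory.

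Klre1 encodes NKG2I, a receptor chain known from mouse natural killer cells. Its values were 50.5, 82.0, 57.8, 66.7 and 87.0 in irf4-/- arrays, against 2.3, 28.4, 29.5, 5.9 and 13.7 in irf4+/+ arrays. The groups did not overlap, and 3 irf4+/+ arrays were dim and scattered widely. The log2 difference was 1.84 (SE 0.344), or 3.58-fold.

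Klrk1 encodes NKG2D, the activating receptor for stress-induced ligands. It gave 78.1, 51.3, 53.9, 52.8 and 55.7 in irf4-/- arrays, against 24.9, 45.3, 25.1, 10.1 and 20.6 in irf4+/+ arrays. All but the first irf4-/- array lay within a narrow band, not far above irf4+/+ replicate 2. The log2 difference was 1.07 (SE 0.264), or 2.10-fold.

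Among the receptors, the Nkrp1 genes are Klrb1c and Klrb1f, and only Klrb1f gave a usable difference. Klrb1c encodes NK1.1, the antigen by which natural killer cells of C57BL/6 mice are usually stained. Its single probe set, which the platform annotation gives to both Klrb1b and Klrb1c, read 5.4, 5.9, 4.0, 13.1 and 18.8 in irf4-/- arrays, against 4.9, 24.2, 6.2, 5.8 and 6.1 in irf4+/+ arrays. All 10 values were dim and the means were equal, 9.44 ± 6.31 in irf4-/- and 9.44 ± 8.27 in irf4+/+ arrays (SD, n = 5). Nothing can be said of Klrb1c from a probe set at this level.

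Klrb1f encodes NKR-P1F, a receptor of the same family that binds the lectin Clr-g. Its brighter probe set gave 59.0, 52.7, 42.8, 59.9 and 54.6 in irf4-/- arrays, against 183.5, 226.3, 197.9, 193.2 and 189.8 in irf4+/+ arrays. All 10 values were above the dim limit, and both groups were tight. The means were 53.8 ± 6.84 in irf4-/- and 198 ± 16.6 in irf4+/+ arrays (SD, n = 5), a log2 difference of -1.74 (SE 0.122), with irf4+/+ 3.35-fold higher.

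The other Klrb1f probe set ran the same way. It gave 2.2, 2.0, 5.1, 17.5 and 15.2 in irf4-/- arrays, all dim, against 50.1, 66.8, 71.5, 63.1 and 67.5 in irf4+/+ arrays. The log2 difference was -2.25 (SE 0.315), with irf4+/+ 4.75-fold higher. Klrb1f is thus the receptor of this set whose signal was measured in irf4+/+ cultures by both of its probe sets and was lower in irf4-/- cultures.

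Klrg1 encodes an inhibitory lectin-like receptor for cadherins, found on mature natural killer and memory T cells. It gave 166.3, 127.2, 101.4, 125.2 and 129.2 in irf4-/- arrays, against 67.2, 80.3, 62.3, 81.7 and 83.8 in irf4+/+ arrays. No value was dim, and the groups lay apart by a modest gap between irf4-/- replicate 3 and irf4+/+ replicate 5. The log2 difference was 0.72 (SE 0.142), or 1.65-fold.

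The remaining receptors are not of the lectin type. Ncr1 encodes NKp46, an activating immunoglobulin-like receptor that is among the most specific markers of natural killer cells and related innate lymphoid cells. It gave 55.7, 43.1, 42.9, 31.1 and 55.5 in irf4-/- arrays, against 4.8, 11.2, 21.2, 21.6 and 22.2 in irf4+/+ arrays. All irf4+/+ values were dim and all irf4-/- values were above the dim limit. The log2 difference was 1.20 (SE 0.296), or 2.31-fold.

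Cd160 encodes a lipid-anchored receptor for the TNF receptor family member HVEM. Its brightest probe set gave 79.7, 72.9, 83.6, 86.5 and 101.9 in irf4-/- arrays, against 46.6, 85.3, 40.7, 69.2 and 55.2 in irf4+/+ arrays. The groups overlapped through irf4+/+ replicate 2, which lay above 3 irf4-/- arrays. The log2 difference was 0.50 (SE 0.182). The other 3 Cd160 probe sets did not pass the filter, and their log2 differences were 0.48 (SE 0.412), 0.12 (SE 0.207) and -0.03 (SE 0.142).

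Il2rb was measured by a pair of probe sets built on the same accession. The brighter gave 210.3, 177.8, 232.7, 267.6 and 219.4 in irf4-/- arrays, against 6.8, 21.5, 11.9, 23.9 and 14.8 in irf4+/+ arrays, which were all dim. Its log2 difference was 3.32 (SE 0.206), or 9.98-fold. The other gave 183.1, 162.9, 161.1, 189.3 and 140.6 in irf4-/- arrays, against 42.3, 51, 50.6, 78.9 and 62.6 in irf4+/+ arrays, none of them dim. There the log2 difference was 1.45 (SE 0.153), or 2.73-fold. Both put every irf4-/- array above every irf4+/+ array, while the size of the difference depended on the probe set.

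**Figure D2:**
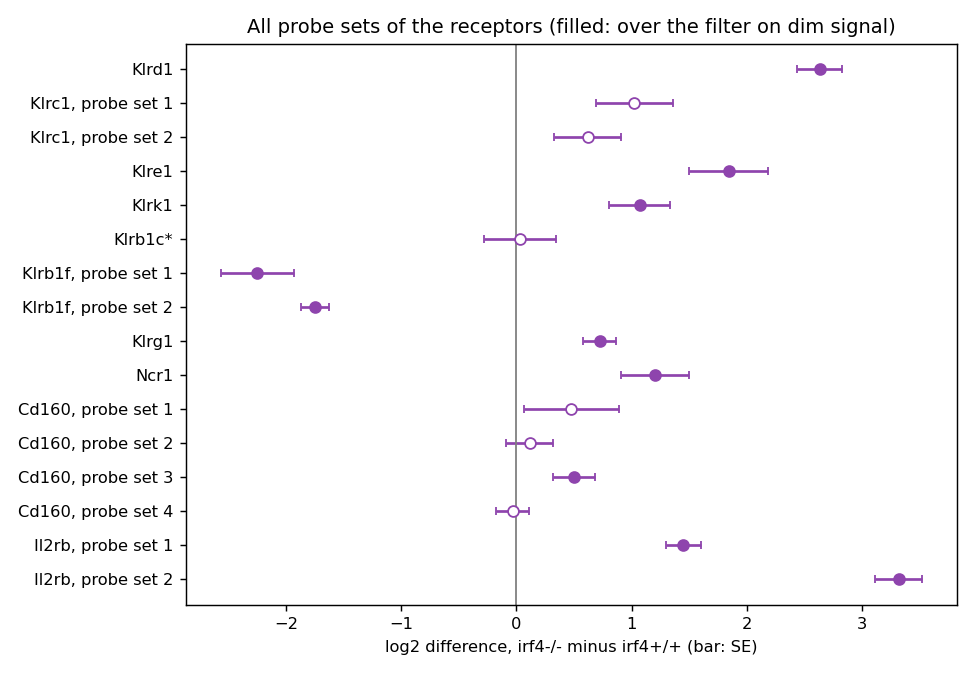
Log2 difference (irf4-/- minus irf4+/+, on the log2(signal + 7.9) scale) of each of the 16 receptor probe sets, with bars of 1 SE. Filled points passed the filter on dim signal. Both Klrb1f probe sets lie left of 0, at -2.25 and -1.74, and the pair for Il2rb lies at 1.45 and 3.32. The Klrb1c probe set (asterisk) is shared with Klrb1b.

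Among themselves the arrays of one genotype did not follow a single order. On the brightest probe sets, 6 genes had every irf4-/- array above every irf4+/+ array, 1 (Klrb1f) every irf4-/- array below, and 3 overlapped. Among the 12251 tested genes 17.4% lay apart in this way above and 18.3% below. Of these 6, irf4-/- replicate 1 was the highest irf4-/- array for 3 genes, replicate 5 for 2 and replicate 4 for 1. Replicate 2 was the lowest for 3 genes and replicates 1, 3 and 4 for 1 each. The coefficient of variation of the 10 genes' brightest probe sets was 12.7% to 66.9% in irf4-/- and 8.38% to 97.8% in irf4+/+ samples, with the wide end taken by dim probe sets. In a bulk sample, fewer cells of a type and less RNA per cell cannot be told apart, and this holds for all values here.

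Genes around the receptors were tested in the fit over 12251 genes, each by its brightest probe set, since they were not named by the rule. Over all of them, 23.4% passed the test as higher in irf4-/- samples and 23.9% as lower, with a median log2 difference of 0.00. Over 8 lists of natural killer genes without the receptors themselves, 85 of 153 genes were tested, of which 61 were called higher, 5 lower and 19 not called. That is 71.8% higher and 5.88% lower, with a median log2 difference of 0.77. Of the 61, 20 (32.8%) had an irf4+/+ mean under the filter floor of 25.1, against 182 of the 2861 genes called higher overall (6.36%). Such genes entered the test only through their bright irf4-/- arrays, which fixed the direction of their differences, so the filter in part sets the share called higher. With the filter at the 60th percentile, 44 were called higher and 5 lower, beside 2605 higher and 2826 lower of all 9046 genes tested there. How many list genes were tested at that filter was not counted, so the shares cannot be compared. All adjusted p-values below are limma's, Benjamini-Hochberg adjusted over all genes.

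Of the other lectin-like receptors, 12 of 29 had a probe set of their own and only 3 passed the filter. All 3 were called higher, but all 3 had irf4+/+ means under the floor and passed through their irf4-/- arrays. The filter had thus fixed the direction of their differences. Klra7, an inhibitory Ly49 receptor for MHC class I, averaged 142 ± 19.7 in irf4-/- and 13.2 ± 10.7 in irf4+/+ arrays (SD, n = 5; log2 difference 2.96, SE 0.289, adjusted p = 3.00e-07). Klrb1b rose 2.94-fold (adjusted p = 0.00163) and Klra8, an activating Ly49 receptor, 1.92-fold (adjusted p = 0.00984). The probe set that Klrb1b shares with Klrb1c, dim on all arrays, showed no such rise, with a mean of 9.44 in each genotype. Ly49 and Nkrp1 genes are near copies of each other, and their probe sets can bind related transcripts, so which member gave the signal is uncertain. Without probe sets whose names mark shared sequence, none of this list was called higher. Klrb1a and Klrg2, both below the filter and chosen after their values were seen, differed in opposite directions. Klrb1a averaged 32.3 ± 5.58 in irf4-/- and 4.88 ± 5.88 in irf4+/+ samples. Klrg2 averaged 10.7 ± 2.43 in irf4-/- and 27.0 ± 10.3 in irf4+/+ samples. Klra1, Klra2, Klra17, Klrc2 and Klrc3 were dim on all 10 arrays.

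Among 14 tested surface proteins of natural killer cells outside the lectin families, 10 rose, 1 fell and 3 were not called, and 6 of the 10 had irf4+/+ means under the floor. Fcgr3, an Fc receptor by which these cells see antibody-coated targets, rose 7.36-fold (adjusted p = 2.48e-07). Cd244a, a SLAM receptor that binds CD48, rose 6.91-fold (adjusted p = 1.24e-07), the death ligand Fasl 4.43-fold and the inhibitory receptor Lag3 4.01-fold. Slamf7 was the member that fell, with irf4+/+ 1.65-fold higher (adjusted p = 1.47e-08), and was named after its values were seen.

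The adaptors and kinases through which the receptors signal were mixed in size. Of 16 tested, 11 rose, 2 fell and 3 were not called. Tyrobp, which encodes DAP12, gave 390.5, 338.7, 311.1, 233.1 and 407.2 in irf4-/- arrays, against 52.3, 23.5, 59.8, 29.7 and 55.2 in irf4+/+ arrays. It rose 6.80-fold (adjusted p = 1.58e-08), and no irf4+/+ array came near the irf4-/- arrays. Fcer1g, the Fc receptor gamma chain, rose 4.91-fold (adjusted p = 1.71e-06), Sh2d2a 3.00-fold and the kinase Syk, which B cells also use, 2.02-fold. Fcer1g had an irf4+/+ mean of 16.2, under the filter floor, so the filter had fixed the direction of its difference. Hcst, which encodes DAP10, the adaptor of NKG2D, averaged 92.9 ± 18.1 in irf4-/- and 75.3 ± 17.2 in irf4+/+ arrays (SD, n = 5), and its log2 difference of 0.28 (SE 0.176) was not called (adjusted p = 0.213). Cd247, the zeta chain, did not pass the filter, with means of 32.7 ± 16.3 in irf4-/- and 14.4 ± 19.0 in irf4+/+ arrays (SD, n = 5).

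All 9 tested partners of the IL-2 and IL-15 receptor were called higher. Il15, the cytokine that sustains natural killer cells, rose 4.86-fold (adjusted p = 5.62e-08). Its irf4+/+ mean, 25.06, lay just under the filter floor of 25.12, so the filter had fixed the direction of its difference. Il15ra, the presenting chain of this cytokine, rose 2.35-fold (adjusted p = 0.00544), although irf4+/+ arrays ranged from 20.6 to 101.8. Il2ra, the alpha chain, averaged 382 ± 41.7 in irf4-/- and 189 ± 22.8 in irf4+/+ arrays (SD, n = 5; adjusted p = 5.23e-07), and the feedback inhibitor Socs3 rose 1.65-fold. Il2rg, the shared gamma chain, was not analysed here, since no probe set carried its symbol alone.

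Ligands of the receptors moved unevenly. Of 11 tested, 5 rose, 1 fell and 5 were not called. Cdh1, the E-cadherin that KLRG1 binds, gave 223.3, 209.4, 223.9, 255.8 and 228.8 in irf4-/- arrays, against 50.3, 44.4, 28.9, 44.1 and 42.7 in irf4+/+ arrays. It rose 4.77-fold (adjusted p = 8.86e-10), with the groups far apart. Tnfrsf14, which encodes the CD160 ligand HVEM, rose 4.64-fold (adjusted p = 1.23e-05), its irf4+/+ values being dim. Their mean, 6.54, was under the filter floor, so the filter had fixed the direction of this difference.

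The ligands of the Nkrp1 receptors lie between the receptor genes. Clec2i, which encodes Clr-g, the ligand of NKR-P1F, averaged 492 ± 58.4 in irf4-/- and 179 ± 14.8 in irf4+/+ arrays (SD, n = 5), 2.67-fold higher (adjusted p = 2.31e-09). This receptor and its ligand thus differed in opposite directions between the genotypes. Clec2d, which encodes Clr-b, rose 1.42-fold (adjusted p = 0.0136), with overlapping groups. Clec2g was dim on all arrays, with means of 5.34 ± 6.81 in irf4-/- and 9.72 ± 8.11 in irf4+/+ samples. Cd48, the ligand of CD244, fell, with irf4+/+ 1.53-fold higher (adjusted p = 3.80e-07). H2-T23, which encodes Qa-1, has no probe set with its symbol alone and was not analysed here.

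Transcription factors of natural killer cells rose in 9 of 12 tested cases, 1 fell and 2 were not called. Of the 9, 2 had irf4+/+ means under the filter floor, Tbx21 (9.7) among them, so the filter had fixed their direction. Tbx21, which encodes T-bet, gave 112.2, 88.1, 98.7, 94.5 and 121.8 in irf4-/- arrays, against 14.3, 10.1, 7.4, 11.7 and 5.0 in irf4+/+ arrays. All irf4+/+ values were dim, and it rose 6.38-fold (adjusted p = 4.83e-08). Eomes, its relative in mature natural killer cells, rose 2.57-fold (adjusted p = 2.31e-05), Id2, which blocks E proteins in innate lymphocytes, 5.15-fold (adjusted p = 3.72e-12) and Zeb2 2.34-fold.

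Granule genes, the killing machinery of these cells, were higher. Of 13 tested granule genes 11 were called higher, 0 lower and 2 not called, with a median log2 difference of 2.57, and 5 of the 11 had irf4+/+ means under the floor. Gzma averaged 8256 ± 1380 in irf4-/- and 819 ± 106 in irf4+/+ samples, and Gzmb 4868 ± 533 in irf4-/- and 362 ± 51.6 in irf4+/+ arrays (SD, n = 5; adjusted p = 5.48e-13 and 3.41e-14). Gzmc rose by 3.46 on the log2 scale and Gzmd, dim in irf4+/+ samples, by 4.12. Prf1, the pore-forming perforin, rose 4.91-fold on its brighter probe set (adjusted p = 3.77e-10), but on its other probe set the log2 difference was 0.41 (adjusted p = 0.207). Of 7 tested effector cytokines and chemokines 3 rose, Ifng 6.02-fold, Ccl5 3.94-fold and Ltb 2.12-fold, and 4 were not called. Ifng had an irf4+/+ mean of 11.1, under the filter floor, so the filter had fixed the direction of its difference.

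**Figure D3:**
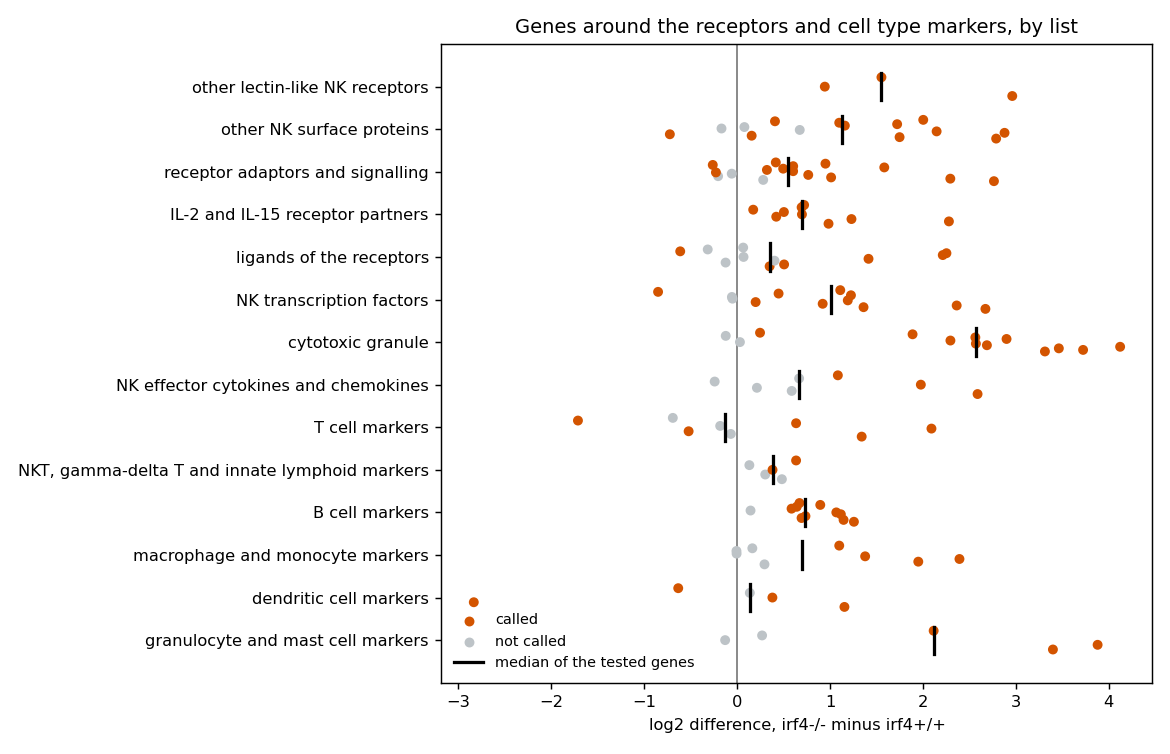
Log2 differences (irf4-/- minus irf4+/+) of the tested genes in 14 lists, 1 point per gene, with a bar at each list's median. Granule genes have a median of 2.57 and the T cell list one of -0.13.

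Markers of other cell types were read beside the receptors, and their part in the receptor values was not tested. Of 8 tested T cell markers, 3 rose, 2 fell and 3 were not called. The 16 markers on the array summed to 4865 to 5880 signal units in irf4-/- and 1473 to 1930 in irf4+/+ arrays. Most of that sum was Thy1, which natural killer cells can also carry, at 4932 ± 456 in irf4-/- and 1153 ± 135 in irf4+/+ arrays (SD, n = 5). Cd5 and Il7r also rose, 2.53-fold (adjusted p = 0.00197) and 1.55-fold (adjusted p = 0.00696). Ctla4 and Cd28 fell, with irf4+/+ 3.28-fold (adjusted p = 1.90e-06) and 1.44-fold (adjusted p = 0.00976) higher. Of the chains that define T cells, Cd3d, Cd3e, Cd4 and Cd8b1 were dim on all 10 arrays, as was Cd6, and Cd3g was dim on all but irf4-/- replicate 1 (27.2). Cd8a was above the dim limit on all 10 arrays, at 77.2 ± 10.9 in irf4-/- and 81.9 ± 16.3 in irf4+/+ arrays (SD, n = 5), and was not called (adjusted p = 0.766). Cd28, Cd8a and the dim genes other than Cd3e were named after their values were seen. Cd3e gave 9.3, 10.4, 24.1, 8.7 and 7.4 in irf4-/- arrays, against 11.7, 6.4, 10.9, 11.6 and 8.7 in irf4+/+ arrays, with no separation between the genotypes.

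Of 5 tested markers of NKT, gamma-delta T and innate lymphoid cells, 2 rose (Il7r and Tmem176a) and 3 were not called. Their sums were 16480 to 19730 in irf4-/- and 13900 to 17650 in irf4+/+ arrays, and Arg1 was dim on all arrays. B cell markers were higher too. Of 11 tested, 10 rose and 1 was not called, and their sums were 77160 to 87360 in irf4-/- and 47480 to 52790 in irf4+/+ arrays. Cd79b averaged 13250 ± 820 in irf4-/- and 5978 ± 286 in irf4+/+ arrays (SD, n = 5), and Cd79a, Pax5 and Cd37 also rose.

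Myeloid markers moved unevenly. Of 8 tested macrophage and monocyte markers, 4 rose (Adgre1, Lyz2, Cd68 and Msr1) and 4 were not called (Csf1r, Mrc1, Fcgr1 and Ccr2). Their sums were 1361 to 1572 in irf4-/- and 495 to 597 in irf4+/+ arrays, and C1qa and C1qc were dim on all. Of 5 tested granulocyte and mast cell markers, 3 rose (S100a8, S100a9 and Ngp) and 2 were not called (Mpo and Elane). Their sums were 732 to 1196 in irf4-/- and 189 to 274 in irf4+/+ arrays, and Mcpt8 was dim on all. Msr1, S100a8 and S100a9 had irf4+/+ means under the filter floor (17.3, 18.3 and 6.56). They entered the test only through their irf4-/- arrays, so the filter had fixed the direction of their differences. Of 5 tested dendritic cell markers, 2 rose (Itgax and Zbtb46), 2 fell (Flt3 and Batf3) and 1 was not called, and their sums were 928 to 975 in irf4-/- and 1197 to 1387 in irf4+/+ arrays. Tyrobp, Fcer1g and Fcgr3 are shared with these myeloid cells.

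The place of the receptor genes on chromosome 6 allows a further comparison. Between Klrg1 and Klrc1 the RefSeq order holds 139 protein-coding genes, 132 of them not among the receptors, and 73 of these were tested. Of the 73, 24 rose (32.9%), 15 fell (20.5%) and 34 were not called, with a median log2 difference of 0.04. Among all tested genes 23.4% rose and 23.9% fell. Some of the 24, named below, passed the filter only through their irf4-/- arrays. In the shorter stretch from Klrb1a to Klrc1, 10 other genes were tested, of which 4 rose, 1 fell and 5 were not called. The 4 were Klrb1b, Clec2i, Clec2d and Clec7a. All but Clec7a were already counted in the lists above, so the comparison is not independent of them. Klrb1b and Clec7a had irf4+/+ means under the filter floor (9.7 and 19.9) and passed only through their irf4-/- arrays. Neighbours of the receptors thus ran in both directions. Gabarapl1, next to Klre1 and chosen after its values were seen, had a log2 difference of -0.06 (SE 0.0763, adjusted p = 0.54).

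The neighbours with the widest differences were mostly lectins of myeloid cells. Clec7a, the beta-glucan receptor Dectin-1, averaged 215 ± 30.9 in irf4-/- and 19.9 ± 15.2 in irf4+/+ arrays (SD, n = 5; 8.86-fold, adjusted p = 7.48e-08). Clec4n, Clec4e and Clec4d, pattern receptors of macrophages, rose 5.85-fold, 4.50-fold and 3.41-fold, and Lag3 is given above. Clec7a, Clec4n, Clec4e, Clec4d and Lag3 all had irf4+/+ means under the filter floor. They entered the test only through their bright irf4-/- arrays, so the filter had fixed the direction of their differences. Mfap5, an extracellular matrix protein, fell, with irf4+/+ 3.63-fold higher (adjusted p = 8.16e-09).

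**Figure D4:**
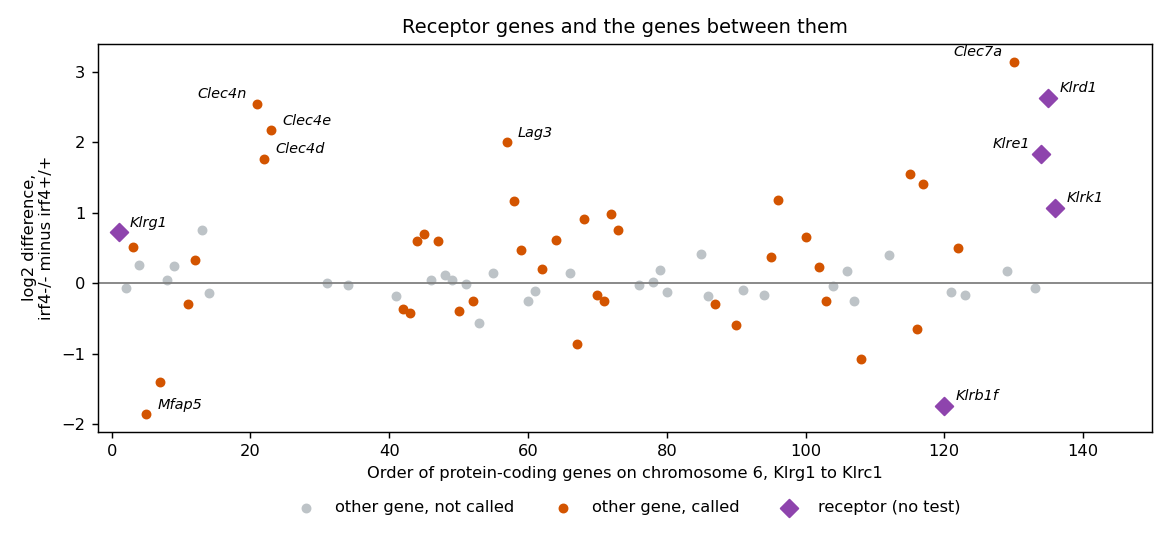
Log2 difference (irf4-/- minus irf4+/+) of tested genes by their order on chromosome 6, from Klrg1 to Klrc1. Diamonds are receptors, given with no test, and circles other genes. Klre1, Klrd1 and Klrk1 lie together between 1.07 and 2.63, and Klrb1f lies at -1.74 among neighbours on both sides of 0.

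Genes with a similar course over the 10 arrays were found by the mean absolute difference between log2 profiles, each centred on its own mean. Against the mean profile of 8 receptors (those over the filter, Klrb1f included, with a log2 difference of 1.19), the nearest of 12243 genes were Ephx1 (0.0983), 1700030K09Rik (0.102), Noxred1 (0.105), Ap3m2 (0.114) and Ralgds (0.117), where the median over all genes was 0.616. None of them is in the lists above. Against Klrb1f alone, a choice made after its values were seen, the nearest were Slco4a1 (0.0762), Alpl (0.102), Emb (0.114), Ghitm (0.115) and Mtm1 (0.117), with a median over all genes of 0.879. Emb averaged 106 ± 7.30 in irf4-/- and 422 ± 25.4 in irf4+/+ samples, and Ghitm 1806 ± 103 in irf4-/- and 5764 ± 280 in irf4+/+ arrays (SD, n = 5). This measure reads the size of the difference between genotypes first, and many genes share it.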

How the data were processed

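Expression was measured in 10 samples, 5 irf4-/- and 5 irf4+/+, on 1 array each. The authors deposited signal intensity per probe set on a linear scale. The submitters' processing notes name MAS5, with no version. Its signal sets perfect-match against mismatch probes, so dim values are noisy. The 2% trimmed mean was 250 on each array, and no further scaling was done. The number of arrays limits the precision.

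Of 45101 probe sets 64 were controls. By the platform annotation 34945 carried 1 symbol and 932 several, and 9160 stay unnamed. Symbols were updated through gene IDs in a RefSeq table of GRCm38.p6, which held 34741 of the 1-symbol probe sets. RefSeq lists Klrb1b as an older name of Klrb1c and also as a gene of its own, so probe sets annotated to Klrb1b alone were not taken for Klrb1c. Promoter sequences are RefSeq's.

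Values were transformed to log2(signal + 7.9), 7.9 being the 20th percentile of all values. Tests left out probe sets whose mean fell below the 40th percentile, and each gene was represented by its brightest probe set with 1 symbol. Genotype was fitted with limma 3.58.1 in R 4.3.3 (eBayes, trend on mean signal), for genes and for all probe sets, and two-sided p-values were adjusted by the Benjamini-Hochberg method. The fit was tested on simulated data. SE of probe sets outside the filter come from a fit without it.

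The receptors, the 14 lists and the tests were chosen with earlier results of these data known. The text names all receptors, Irf4, up to 4 called genes with the largest absolute difference in each list, a set of defining genes whatever their result, the 5 genes nearest in profile and up to 6 called neighbours. Alternatives were other pseudocounts, filters, scalings, variance models and choices of probe set, the replicate number as a block, and each array left out.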

Additional observations from a re-analysis of the deposited data

Results flagged for a closer look

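Among 156 groups of 5 arrays checked (the receptors' probe sets and the other named genes, in each genotype), 11 held a value whose gap to the nearest other, as a share of the group's range on the log2 scale, was above 0.71. Chance gives about 1 in 20 groups. For the receptors these were Klrk1 in irf4-/- replicate 1 (78.1 against 51.3 to 55.7 in the others, share 0.808), Klrb1c in irf4+/+ replicate 2 (24.2 against 4.9 to 6.2, share 0.895) and a Cd160 probe set that was dim on all arrays in irf4+/+ replicate 2 (2.4 against 1.0 to 1.3, share 0.773). Without irf4-/- replicate 1 the log2 difference of Klrk1 was 0.97.

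For the other genes, in irf4-/- samples, replicate 1 stood high for Batf3 (266.7 against 160.7 to 184.0, share 0.735), replicate 2 low for Cd247 (6.1 against 31.7 to 46.7, share 0.764), replicate 3 high for Cd3e (24.1 against 7.4 to 10.4, share 0.757) and low for Fasl (53.3 against 76.6 to 84.6, share 0.781), and replicate 5 low for Tmem176a (4530.8 against 5330 to 5570, share 0.787). In irf4+/+ samples, replicate 3 stood low for Clec4n (2.5 against 20.8 to 30.6, share 0.776), replicate 5 high for Gzmd (5.0 against 0.6 to 1.1, share 0.863) and replicate 4 high for Lag3 (31.6 against 3.0 to 6.9, share 0.762). Of these values, those of Cd247, Cd3e, Clec4n and Gzmd are dim.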

How the results depend on the processing

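Under 21 alternatives the 8 receptors over the filter kept their direction wherever they had a value. In 154 of 163 comparisons the log2 difference moved by less than the spread within groups. With a pseudocount of 1 it moved further for Klrd1 (2.98) and Il2rb (3.83), with one of 32 for Klrd1 (1.94), Klre1 (1.10), Klrb1f (-1.42), Ncr1 (0.69) and Il2rb (2.41), and with the mean of probe sets for Klrb1f (-2.0) and Il2rb (2.38). Over the arrays left out, Klrb1f ranged from -1.78 to -1.67, Klrd1 from 2.48 to 2.76, Klrk1 from 0.87 to 1.26 and Cd160 from 0.39 to 0.62. Klrc1 and Klrb1c had no value over the filter.

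Over all genes, 2861 were called higher and 2927 lower. Without any 1 array these counts were 2670 to 2835 and 2737 to 2906, and in the 8 natural killer lists 57 to 60 higher and 5 to 6 lower, against 61 and 5. Median centring moved the median of all genes to -0.06 and the share of calls that were higher to 41.7%, from 49.4%. With the filter at the 60th percentile the other lectin-like receptors had 1 called higher, other surface proteins 4, and T cell markers 1 higher and 1 lower. There too, NKT and innate lymphoid markers and dendritic cell markers each had 1 called higher. With quantile normalization or median centring the ligands had 2 called lower and the granule genes 1. With the mean of probe sets the signalling list had 0 called lower and the ligands 2. Without the probe sets marked _x_at, _s_at or _a_at, the other lectin-like receptors had 0 called higher, the surface proteins 0 lower, and Prf1 was not called. With no filter, 1 lectin-like receptor was called lower. Leaving out 1 array made 2 ligands called lower (irf4-/- replicate 3 or 4, or irf4+/+ replicate 2 or 4), 2 surface proteins (irf4+/+ replicate 3) and 1 granule gene (irf4-/- replicate 2). The causes were not tested.

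With the replicate block 2831 genes were called higher and 2885 lower, and 60 and 5 in the 8 lists. Deviations from the group means of samples with the same number correlated at -0.04 to 0.05, no more than those with different numbers (-0.08 to 0.07). Of 5 irf4-/- samples, 0 correlated best with their own number. No shared deviation by number was thus seen, which does not settle whether the samples were paired. Signals under the dim limit bound what can be read for Klrc1, Klrb1c and the Ly49 genes.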
